A study of Mus musculus with 6 samples.

Results

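The genes described here are grouped as surface ligands and enzymes by which tissue cells and myeloid cells can restrain T cells. They were taken by symbol, and all 10 members (Cd274, Pdcd1lg2, Ido1, Arg1, Nos2, Lgals9, Icosl, Cd276, Cd47 and Nt5e) were found among the 38896 genes of the table. RNA was sequenced from colonic fibroblasts, the connective-tissue cells beneath the epithelium of the large bowel, taken from distal colon of 6-week-old animals and passaged 2 times. Cultures were then kept for 24 h in inflammatory conditioned medium (labelled DSS) or in control conditioned medium (labelled Ctrl), 3 libraries each. Mice 1716, 1717 and 1718 each gave 1 library of either kind, so the groups pair by animal. The labels give DSS or control under the tag genotype and name neither a strain nor a mutant allele, and the sources used here do not say how the media were made. DSS is the common short form of dextran sulfate sodium, a chemical that causes colitis in mice.

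T cells are held in check from outside in 2 main ways. Membrane ligands such as PD-L1 engage inhibitory receptors on the T cell, and enzymes change the small molecules around it: IDO1 consumes tryptophan, arginase 1 and inducible nitric oxide synthase consume arginine, and CD73 makes adenosine. In the gut, fibroblasts as well as myeloid cells can carry these molecules, and interferon-gamma is the best known inducer of several of them.

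The libraries held 17293680 to 19482938 estimated counts. Levels below are in CPM, counts scaled to a common library size after TMM normalization, and a list of 3 values follows the order of mice 1716, 1717 and 1718. Each log2 fold change is DSS over Ctrl, given ± SE, from edgeR's quasi-likelihood test over 19869 genes, and a gene was called at an adjusted p under 0.05. Fibroblast markers were abundant: the 10 markers summed to 25453 to 29636 CPM in DSS and 43423 to 52063 CPM in Ctrl. Col1a1 gave the largest part of that sum, with a mean of 8605 CPM in DSS and 17959 CPM in Ctrl. Of these 10 markers 5 were called lower and 1 higher. The 1 called higher was Pdgfra, with 980 ± 127 CPM in DSS and 599 ± 94.1 CPM in Ctrl (SD, n = 3 each). Macrophage markers were present as well, with all 17 tested, 1 called higher and 7 called lower, and summed to 1413 to 2317 CPM in DSS and 2347 to 3286 CPM in Ctrl. Of the T cell markers, Cd2 and Cd3g were at 0 in every library, and the 8 markers together summed to at most 11.8 CPM in DSS and 10.3 CPM in Ctrl. In RNA from whole cultures, fewer cells of a type and less RNA per cell cannot be told apart.

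Cd274, Icosl and Lgals9 were higher in the DSS cultures and Cd276 was lower, while Nos2 moved in opposite directions in different mice. Of the 9 members that passed the filter on low counts, 3 were called higher, where 7.37% of all genes were, and 1 was called lower, where 5.91% were; 13.3% of all genes were called in either direction. The other 5 tested members did not pass, and Pdcd1lg2 was too low to be tested. In a fit blocked by mouse 3 members were higher and 3 lower, against 12.3% and 12.7% of all genes. The median log2 fold change of the 9 was 0.35, against 0.01 for all genes tested. All 3 DSS libraries lay above all 3 Ctrl libraries for 3 members, against 17.7% of all genes, and below them for 2 members, against 16.5%.

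**Figure D1:**
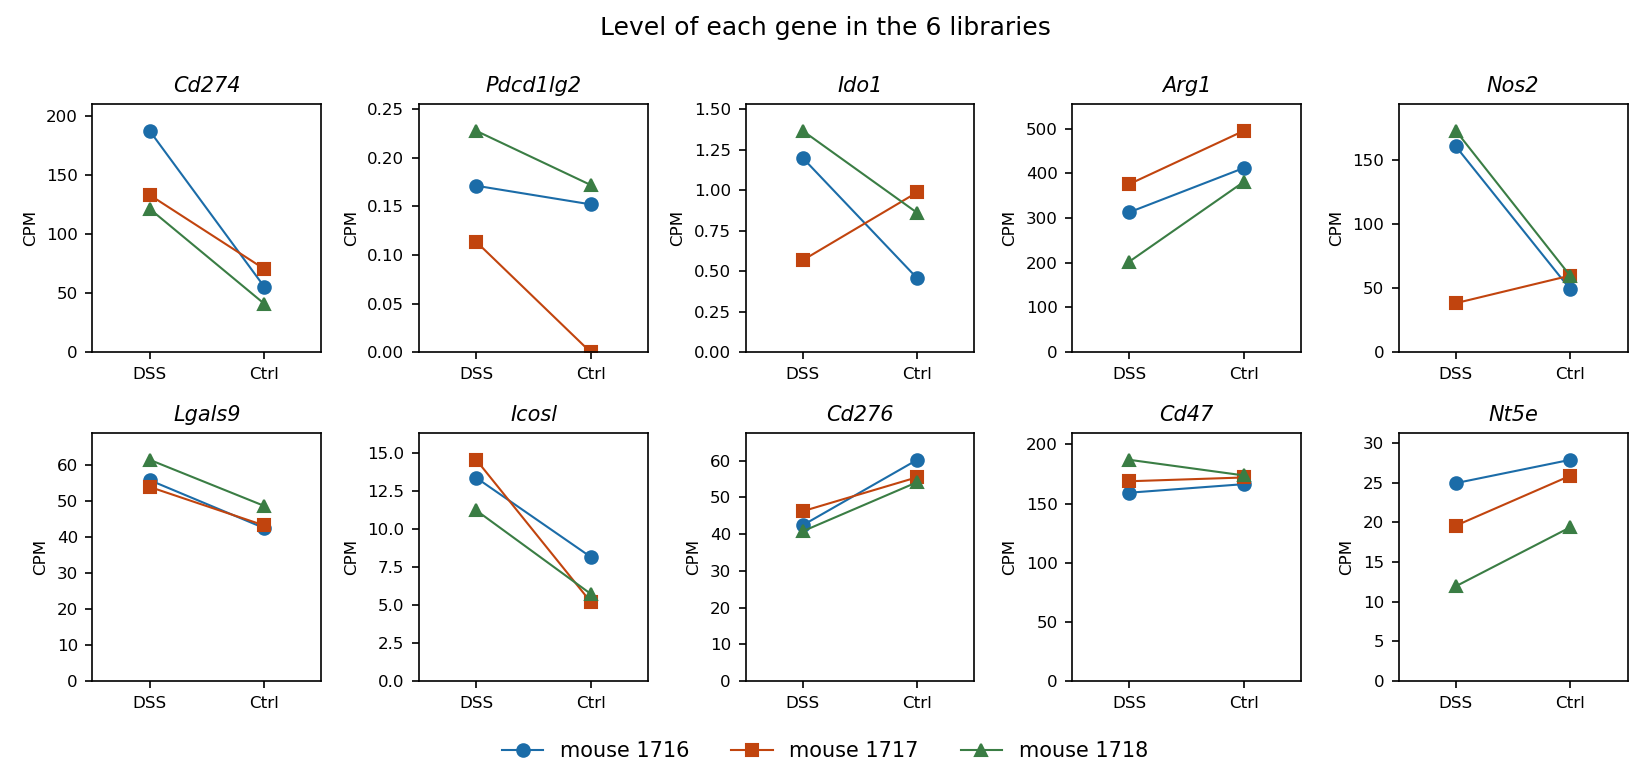
Level of each of the 10 genes in CPM (linear axis from 0, its own scale per gene) in the DSS and Ctrl library of each mouse, joined by a line. Cd274, Icosl and Lgals9 lie higher in DSS in all 3 mice, Cd276, Arg1 and Nt5e lower, and mouse 1717 alone is lower in DSS for Nos2 and Ido1.

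Per length of transcript, Arg1 stood far above the other members. It had 201 ± 59.4 CPM per kilobase in DSS and 291 ± 40.0 in Ctrl (SD, n = 3 each). Next in DSS came Cd274 with 40.6 ± 9.71, Lgals9 with 37.5 ± 2.58, Cd47 with 32.7 ± 2.69 and Nos2 with 29.6 ± 17.8 CPM per kilobase, values whose ranges overlapped from each gene to the next. In Ctrl that order was Cd47 with 32.5 ± 0.737, Lgals9 with 29.5 ± 2.21, Cd276 with 15.7 ± 0.887, Cd274 with 15.4 ± 4.05 and Nos2 with 13.4 ± 1.47 CPM per kilobase. There the ranges of Cd47 and Lgals9 overlapped, and that of Cd274 overlapped both Cd276 and Nos2. Cd276 had 11.98 ± 0.777 CPM per kilobase in DSS, and the means of Nt5e and Icosl lay between 2.26 and 6.10 in both groups. Ido1 had 0.630 ± 0.254 CPM per kilobase in DSS and 0.463 ± 0.167 in Ctrl, and Pdcd1lg2 had 0.104 ± 0.0346 in DSS and 0.0655 ± 0.0570 in Ctrl. Lengths are those of the GENCODE transcript paired with the most abundant RefSeq transcript that had such a pair, so they are approximate for genes with several forms. For Cd47 this was NM_010581.3, with 26.2% of its counts, and not the leading form NM_001368415.1, with 47.6%.

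**Figure D2:**
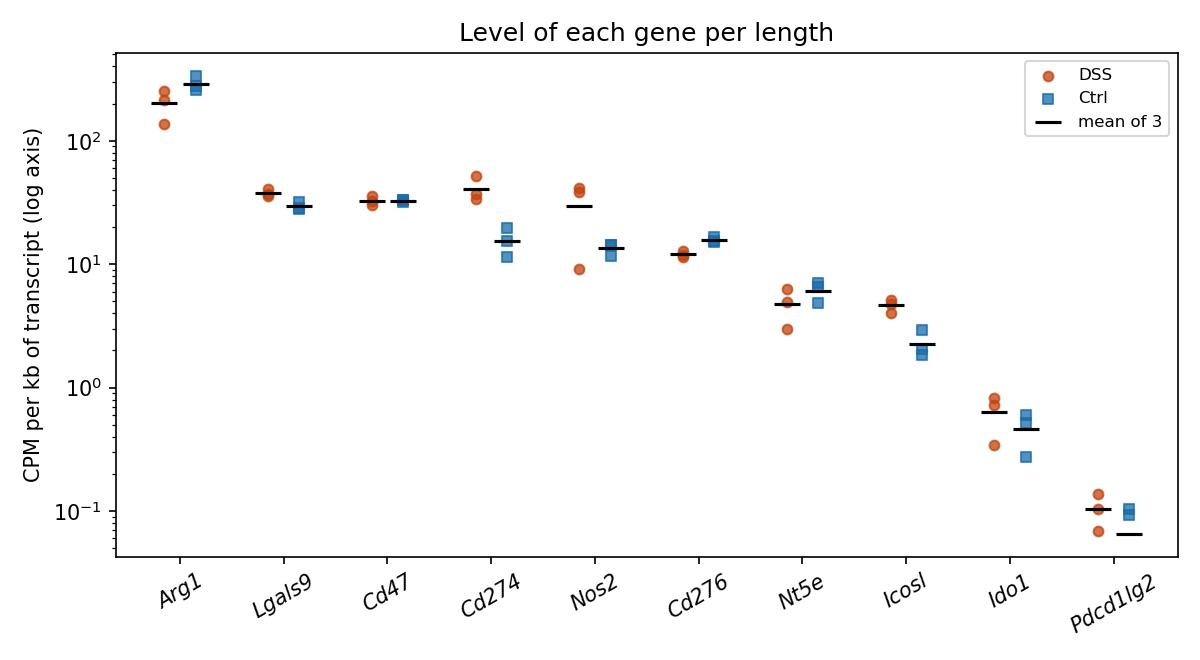
CPM per kilobase of transcript on a log axis for each gene, with 3 DSS libraries (circles) left of 3 Ctrl libraries (squares) and the mean of 3 as a bar; a library at 0 (Pdcd1lg2, Ctrl of mouse 1717) has no point. Arg1 is highest in both groups and Pdcd1lg2 and Ido1 are lowest.

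Cd274 encodes PD-L1, the ligand that engages the inhibitory receptor PD-1 on T cells. It lies on chromosome 19 at 29362107 to 29388095 (plus strand, GRCm38; NCBI Gene 60533). It measured 187, 133 and 121 CPM in DSS, against 55.5, 70.4 and 41.0 CPM in Ctrl. The groups did not overlap, and the smallest difference was that of mouse 1717. Cd274 rose 2.64-fold (log2 fold change 1.401 ± 0.23, edgeR adjusted p = 0.00827), with differences of 1.75, 0.92 and 1.56 in the 3 mice. The call held in all 16 alternative fits, also with any 1 library or any 1 mouse left out. Most counts went to the curated transcript NM_021893.3, which took 80.0 to 89.3% in DSS and 82.2 to 85.5% in Ctrl. A predicted form, XM_030251021.1, took 7.49 to 13.7% in DSS and 10.6 to 11.6% in Ctrl, so the ranges of the groups overlapped for both forms.

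Pdcd1lg2, which encodes PD-L2, the second ligand of PD-1, starts 22823 bases after the end of Cd274 on the same strand (chromosome 19, 29410919 to 29472927). It was nearly absent, with 3, 2 and 4 counts in DSS against 3, 0 and 3 counts in Ctrl. At about 3 counts a library no difference was detectable at this depth, and with no filter on low counts its edgeR adjusted p was 0.709.

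Icosl encodes the ligand of ICOS, a costimulatory receptor of activated and regulatory T cells (chromosome 10, 78069368 to 78079525, plus strand). It measured 13.4, 14.5 and 11.2 CPM in DSS, against 8.16, 5.21 and 5.73 CPM in Ctrl. Every DSS library lay above every Ctrl library, and the largest difference was that of mouse 1717, unlike for Cd274. Icosl rose 2.04-fold (log2 fold change 1.03 ± 0.19, edgeR adjusted p = 0.0124). With the mouse as a block the log2 fold change was 1.04 ± 0.15 (edgeR adjusted p = 0.00270). The call was lost without Ctrl 1717 (adjusted p = 0.0504), Ctrl 1718 (0.0505), mouse 1717 (0.135) or mouse 1718 (0.0759), where "without mouse" means without both of its libraries.

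Lgals9 encodes galectin-9, a sugar-binding protein that can engage TIM-3 on T cells. It lies on chromosome 11 at 78962979 to 78984924 (minus strand), 2752 bases from Nos2, whose end faces its own. Lgals9 measured 55.8, 53.9 and 61.5 CPM in DSS, against 42.5, 43.2 and 48.7 CPM in Ctrl. The groups did not overlap and the 3 mice were nearly equal, with differences of 0.39, 0.32 and 0.34 on the log2 scale. The rise was small, 1.27-fold (log2 fold change 0.35 ± 0.08, edgeR adjusted p = 0.0330). With the mouse as a block the log2 fold change was 0.35 ± 0.06 (edgeR adjusted p = 0.00403). The call was lost in 8 of the 9 fits that left out data, all but the one without Ctrl 1718 (adjusted p = 0.0525 to 0.179). The form NM_001159301.1 took 95.0 to 96.9% of its counts in every library.

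Cd276 encodes B7-H3, a relative of PD-L1 whose receptor on T cells is not settled (chromosome 9, 58524300 to 58555033, minus strand). It measured 42.5, 46.3 and 40.8 CPM in DSS, against 60.3, 55.5 and 54.2 CPM in Ctrl. It was lower in DSS in each mouse, the groups did not overlap, and the gap between them was wider than the spread within either. It fell by 0.39 ± 0.08 on the log2 scale (edgeR adjusted p = 0.0160). With the mouse as a block the log2 fold change was -0.39 ± 0.07 (edgeR adjusted p = 0.00510). The call was lost without Ctrl 1716, Ctrl 1717, DSS 1718 or any 1 mouse (adjusted p = 0.0513 to 0.0916).

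Cd47 encodes the "do not eat me" signal read by SIRP-alpha on macrophages, and also a receptor of thrombospondin 1 (chromosome 16, 49851328 to 49912503, plus strand). It measured 159, 169 and 187 CPM in DSS, against 166, 172 and 174 CPM in Ctrl. The groups overlapped, and the fitted change was 0.01 ± 0.08 on the log2 scale (edgeR adjusted p = 0.962). It was listed with 13 transcripts, of which 9 had at least 1 count over the 6 libraries and 2 took at least 10% of the counts. These were NM_001368415.1, with 45.7 to 51.2% in DSS and 43.2 to 51.6% in Ctrl, and NM_010581.3, with 23.5 to 29.2% in DSS and 24.1 to 28.1% in Ctrl.

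The promoters of the 3 ligand genes that rose are shown because these genes were called in the same direction. They are RefSeq sequences of GRCm38.p6, from 250 bases before to 50 bases after the annotated start of a transcript, read 5′ to 3′ on the gene's strand. For Cd274 that start is 29367438, inside the gene interval given above and not at its first base, 29362107. It lies 17 bases from the GENCODE start of the transcript paired with NM_021893.3. The windows are chr19:29367188-29367487 for Cd274, chr10:78069118-78069417 for Icosl and chr11:78984875-78985174 for Lgals9, and capitals mark matches to the core of the interferon-stimulated response element.
Cd274: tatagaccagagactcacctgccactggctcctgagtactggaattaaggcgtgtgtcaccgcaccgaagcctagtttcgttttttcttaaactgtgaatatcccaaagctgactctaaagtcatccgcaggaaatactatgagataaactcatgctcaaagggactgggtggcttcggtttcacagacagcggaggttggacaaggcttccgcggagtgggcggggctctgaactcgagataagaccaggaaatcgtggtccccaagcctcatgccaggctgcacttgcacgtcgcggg
Icosl: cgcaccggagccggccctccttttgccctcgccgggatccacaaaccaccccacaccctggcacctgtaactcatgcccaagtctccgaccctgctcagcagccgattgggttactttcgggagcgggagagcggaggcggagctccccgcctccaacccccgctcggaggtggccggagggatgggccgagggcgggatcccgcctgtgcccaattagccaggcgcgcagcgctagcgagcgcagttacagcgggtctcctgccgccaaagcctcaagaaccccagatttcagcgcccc
Lgals9: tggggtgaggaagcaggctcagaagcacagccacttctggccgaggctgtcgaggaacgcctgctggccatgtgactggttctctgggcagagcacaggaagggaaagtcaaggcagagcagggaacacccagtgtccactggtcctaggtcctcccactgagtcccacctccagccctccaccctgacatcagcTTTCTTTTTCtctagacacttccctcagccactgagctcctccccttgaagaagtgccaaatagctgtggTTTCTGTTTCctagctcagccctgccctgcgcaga

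Both strands were searched for 4 short patterns. The core of the interferon-stimulated response element (GAAA, any 2 bases, GAAA) occurred in 3.44% of 32851 RefSeq promoter windows of this length, and the gamma-activated sequence (TTCNNNGAA) in 8.3%. The AP-1 pattern (TGANTCA) occurred in 7.81% and the loose NF-kB pattern (GGG, any 5 bases, CC) in 50.8%. Lgals9 held 2 matches to the response element core, at -55 to -46 and at 16 to 25 counted from the start, and Cd274 and Icosl held none. None of the 7 members with a window held the gamma-activated or the AP-1 pattern. The NF-kB pattern matched once in Lgals9, at 2 places in Icosl and at 9 partly overlapping places in Cd276, and it was not in the windows of Cd274 and Cd47. As for Cd274, the windows of Cd47 lie inside the gene interval given above and not at its first base. A match is only a match of letters, and no match says nothing about sites elsewhere in the gene.

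Among the enzymes, Arg1 encodes arginase 1, which splits arginine into ornithine and urea and is known above all from liver and from macrophages (chromosome 10, 24915207 to 24927470, minus strand). It measured 313, 376 and 203 CPM in DSS, against 412, 495 and 381 CPM in Ctrl. Each mouse was lower in DSS, by 0.40, 0.40 and 0.91 on the log2 scale, and the groups fell just short of overlapping. The log2 fold change was -0.53 ± 0.22 (edgeR adjusted p = 0.154), short of the threshold, but with the mouse as a block it was -0.57 and passed (adjusted p = 0.00789). The summed macrophage markers moved with it: 1566, 2317 and 1413 CPM in DSS, against 2347, 3286 and 2806 CPM in Ctrl. Lyz2, the most abundant of these markers, measured 622, 936 and 574 CPM in DSS, against 991, 1598 and 1489 CPM in Ctrl. Of the 17 markers 7 were called lower (Fcgr1, C1qa, C1qb, C1qc, Itgam, Aif1 and Lyz2), and 1, Cd68, was called higher, with 42.5 ± 4.95 CPM in DSS and 26.0 ± 4.28 CPM in Ctrl (log2 fold change 0.71 ± 0.14, edgeR adjusted p = 0.0158). The other 9 did not pass. Among them Adgre1, which encodes the macrophage antigen F4/80, had 97.2 ± 29.5 CPM in DSS and 80.2 ± 10.6 CPM in Ctrl. Mertk, an uptake receptor for dying cells, passed as higher only with the mouse as a block (0.34 ± 0.08, edgeR adjusted p = 0.0190). With the same block Mrc1 (-1.37 ± 0.15, edgeR adjusted p = 0.000844), Csf1r (-0.37 ± 0.08, 0.0157) and Cd14 (-0.39 ± 0.10, 0.0228) passed as lower. In that fit 2 of the 17 markers were higher and 10 lower, against 12.3% and 12.7% of all genes. The part of macrophages in the level of Arg1 was not tested.

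Nos2 encodes inducible nitric oxide synthase, which turns arginine into nitric oxide and citrulline (chromosome 11, 78920787 to 78960226, plus strand). It measured 161, 38.4 and 173 CPM in DSS, against 49.2, 59.9 and 59.7 CPM in Ctrl. The Ctrl libraries lay close together, while among the DSS libraries those of mice 1716 and 1718 stood about level and that of mouse 1717 stood below every Ctrl library. The differences were 1.71, -0.64 and 1.54 on the log2 scale. The fitted log2 fold change of 1.14 ± 0.48 did not pass (edgeR adjusted p = 0.166; 0.151 with the mouse as a block). Without the DSS library of mouse 1717 the log2 fold change was 1.57 (edgeR adjusted p = 0.000688), and without both libraries of that mouse 1.62 (adjusted p = 0.00909). Leaving out the library that went against the others favours a small p, so these fits are no separate support for a rise. In every other fit that left out data Nos2 did not pass (edgeR adjusted p = 0.278 to 0.497). Since each mouse gave 1 library per medium, the difference between mice has no test, and over all genes 43.1% did not move the same way in all 3 mice. The form NM_010927.4 took 85.1 to 90.9% of the counts in DSS and 82.6 to 93.5% in Ctrl.

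Ido1 encodes indoleamine 2,3-dioxygenase 1, which starts the breakdown of tryptophan to kynurenine (chromosome 8, 24584133 to 24596952, minus strand). It was scarce, with 21, 10 and 24 counts in DSS against 9, 18 and 15 counts in Ctrl. Mouse 1717 again went the other way, with a difference of -0.69 against 1.21 in mouse 1716 and 0.61 in mouse 1718. The log2 fold change of 0.45 ± 0.41 did not pass (edgeR adjusted p = 0.527).

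Nt5e encodes CD73, the membrane enzyme that turns AMP into adenosine (chromosome 9, 88327609 to 88372089, plus strand). It measured 24.9, 19.6 and 11.95 CPM in DSS, against 27.9, 25.9 and 19.4 CPM in Ctrl. The groups overlapped, but each mouse was lower in DSS, by 0.16, 0.40 and 0.69 on the log2 scale, and mouse 1718 was lowest in both media. The log2 fold change of -0.37 ± 0.26 did not pass (edgeR adjusted p = 0.394). With the mouse as a block it was -0.40 ± 0.10 and passed (adjusted p = 0.0297), whereas DESeq2 with the same block gave an adjusted p of 0.0616.

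**Figure D3:**
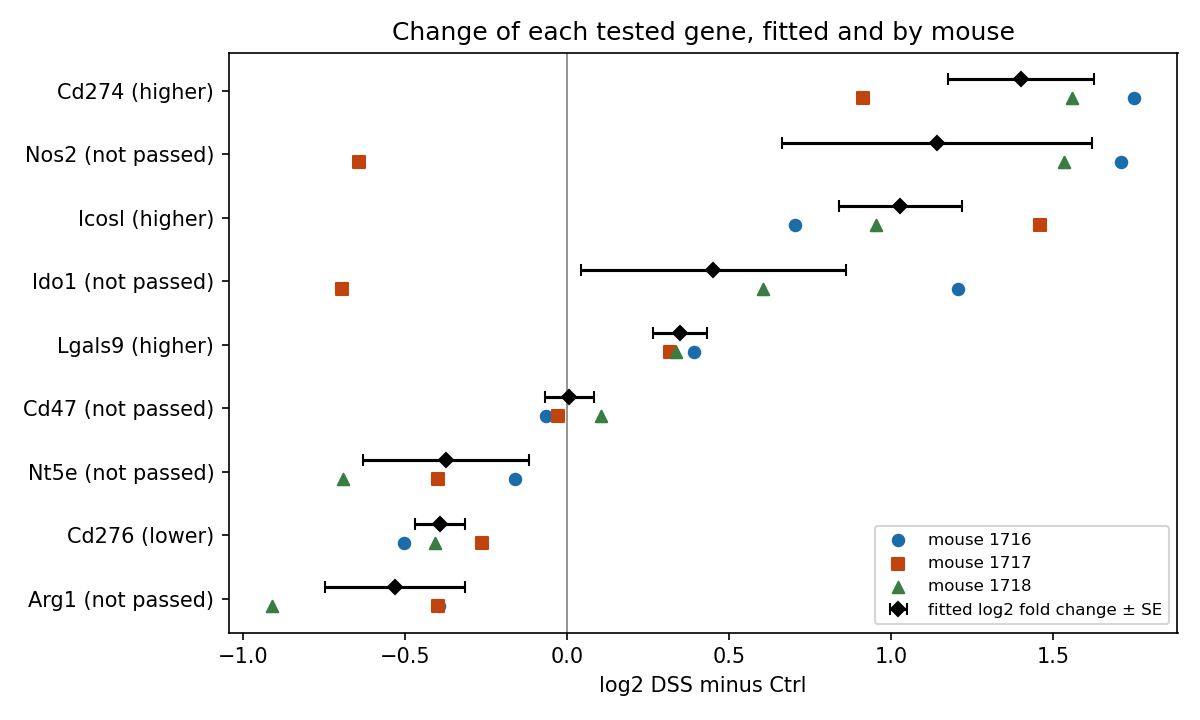
Log2 difference of DSS minus Ctrl for the 9 tested genes, with the fitted log2 fold change ± SE (diamonds) and the difference in each mouse (coloured points), ordered by the fitted value. The mice lie close together for Lgals9, Cd276 and Cd47, and mouse 1717 lies below 0 for Nos2 and Ido1 while the other 2 mice lie above it.

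Other genes of the same pathways were taken from lists of companions, and their calls are read beside those of all genes, of which 7.37% were higher and 5.91% lower (12.3% and 12.7% with the mouse as a block). Of 25 regulators of PD-L1, 11 (44%) were called higher and 0 lower (median log2 fold change 0.32, against 0.01 for all genes). Among those with the smallest p was Nlrc5, a transactivator of MHC class I genes, with 137 ± 72.4 CPM in DSS and 13.1 ± 2.08 CPM in Ctrl (log2 fold change 3.38 ± 0.45). Stat2 (1.46 ± 0.22) and Irf9 (0.89 ± 0.14), which act in the type I interferon response, were among them as well. In mouse 1717 Nlrc5 differed by 1.82, against 4.05 in mouse 1716 and 3.71 in mouse 1718. The count called higher was 7 without Ctrl 1717, and 7, 6 and 3 with mouse 1716, 1717 or 1718 left out in turn. Fewer of all genes were called in such fits too. Over the 9 fits that left out data, 378 to 1310 genes were higher and 185 to 1108 lower, against 1465 and 1174 in the main fit. Counts from such fits, for this list and those below, are to be read beside these. Among single genes the call of Nlrc5 was lost without mouse 1718 (adjusted p = 0.0612), of Stat2 without mouse 1716 (0.0505) and of Irf9 without mouse 1717 (0.0587).

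Of 20 tested ligands and surface molecules that T cells read, beside the members, 3 (15%) were called higher and 4 (20%) lower (median 0.05), and with the block 5 were higher and 6 lower. Higher were Icam1, an adhesion molecule (105 ± 33.1 CPM in DSS and 33.4 ± 7.73 CPM in Ctrl), Cd40, a receptor for T cell help (0.83 ± 0.12), and H2-T23, a class I-like molecule that presents to NKG2A (1.86 ± 0.32). H2 genes are close copies, so the level of H2-T23 is uncertain. Tnfsf18, the ligand of the costimulatory receptor GITR, had 3 counts in each DSS library, against 199, 185 and 176 counts in Ctrl (edgeR adjusted p = 3.76e-05). Cd80 and Cd86, the ligands of CD28 and CTLA-4, were named after their values were seen. Cd80 fell by 0.88 ± 0.16 (15.4 ± 2.98 CPM in DSS and 28.5 ± 4.21 CPM in Ctrl), and Cd86 by 0.996 ± 0.26 (2.45 ± 0.601 CPM in DSS and 4.90 ± 1.27 CPM in Ctrl). The call of Cd86 was lost without any 1 DSS library, without Ctrl 1717, Ctrl 1718, mouse 1717 or mouse 1718, and with limma-voom (adjusted p = 0.0626 to 0.244). The call of Cd80 was lost without any 1 mouse (0.0520 to 0.0602), of Cd40 without mouse 1717 or 1718 (0.0504 and 0.0706), and of Icam1 and H2-T23 without mouse 1718 (0.0885 and 0.0798). The count called higher was 0 without mouse 1718, and the count called lower was 2 without DSS 1718, Ctrl 1717 or mouse 1716 and 1 without mouse 1717 or mouse 1718. Macrophages also express Cd80 and Cd86, and the part of the macrophage markers, whose sums are given above, in these values was not tested. The sum of the 7 dendritic cell markers went the other way, with 31.4 to 34.5 CPM in DSS and 20.7 to 22.4 CPM in Ctrl. Of the 5 tested, 1, Itgax, was called higher (1.55 ± 0.17) and 0 lower, and 4 did not pass. Itgax had 11.1 ± 0.749 CPM in DSS and 3.80 ± 0.804 CPM in Ctrl and made the largest part of the difference in that sum. The part of the dendritic cell markers was not tested either.

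Of 7 tested genes in the galectin list, which beside galectins holds the galectin-3-binding protein, 2 (28.6%) were called higher and 1 (14.3%) lower (median 0.31). Lgals1, which encodes galectin-1, fell to 250 ± 21.7 CPM in DSS, against 377 ± 34.8 CPM in Ctrl (-0.59 ± 0.10, edgeR adjusted p = 0.00876), opposite to Lgals9. Lgals8, a galectin (0.34 ± 0.07), and Lgals3bp, the binding protein (0.79 ± 0.16), rose. These calls were lost without mouse 1717 and, for Lgals1 and Lgals8, without mouse 1718; Lgals3bp was also lost without Ctrl 1717, and Lgals8 without DSS 1718, Ctrl 1716, Ctrl 1717 or mouse 1716 (adjusted p = 0.0524 to 0.145). Of 7 tested partners and modifiers of CD47, 0 were called higher and 1 (14.3%), Thbs2, lower, which encodes thrombospondin 2 (-1.13 ± 0.29, edgeR adjusted p = 0.0450), a call lost in 7 of the 9 fits that left out data, all but those without DSS 1717 and DSS 1718 (0.0661 to 0.171). Sirpa had 96.9 ± 10.4 CPM in DSS and 115 ± 7.55 CPM in Ctrl and missed the threshold (edgeR adjusted p = 0.137). It was lower in all 3 mice and passed with the mouse as a block (-0.25 ± 0.06, adjusted p = 0.0255). With the block 1 partner was higher and 3 were lower. Of 7 tested receptors of these ligands 0 were higher and 1 (14.3%), P4hb, was lower (-0.66 ± 0.11). P4hb is a protein disulfide isomerase that galectin-9 can bind, and its call was lost without mouse 1717 or 1718 (edgeR adjusted p = 0.0976 and 0.0952). With the block 2 receptors were lower, P4hb and Sirpa, which stands in both lists and is counted among the CD47 partners as well. Pdcd1, which encodes PD-1, had at most 0.171 CPM in DSS and 0.253 CPM in Ctrl and was not tested.

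In the arginine and nitric oxide pathway 6 of 27 tested genes (22.2%) were called higher and 4 (14.8%) lower (median -0.09). Odc1, ornithine decarboxylase, which uses the ornithine that arginase makes, rose to 302 ± 69.7 CPM in DSS, against 111 ± 11.4 CPM in Ctrl (1.44 ± 0.17, edgeR adjusted p = 0.00299). Slc7a2, an arginine transporter, rose by 1.14 ± 0.14, and Gch1, which begins the synthesis of the cofactor of nitric oxide synthase, by 0.89 ± 0.12. Srm, spermidine synthase, fell by 0.81 ± 0.11. Named after their values were seen, Arg2, the mitochondrial arginase, rose to 10.1 ± 2.68 CPM in DSS, against 3.85 ± 1.17 CPM in Ctrl (1.39 ± 0.27), and Ass1, which remakes arginine from citrulline, rose by 1.18 ± 0.31. Slc7a1, the main arginine transporter of most cells, fell by 1.42 ± 0.21. Unlike for Nos2, the differences in mouse 1717 had the same sign as in the other 2 mice for Gch1 (0.86), Slc7a2 (0.91) and Ass1 (1.18). Calls were lost for Gch1 and Arg2 without mouse 1717 or 1718, for Slc7a1 without mouse 1717, and for Ass1 without any 1 Ctrl library, DSS 1717, DSS 1718, mouse 1717 or mouse 1718 (adjusted p = 0.0515 to 0.221). The count called higher was 2 without mouse 1717 and 2 without mouse 1718, and the count called lower was 1 and 2; with the block 7 were lower.

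In the tryptophan and kynurenine pathway 2 of 16 tested genes (12.5%) were called higher and 1 (6.25%) lower (median 0.35), counts near the shares of all genes. Ahr, the aryl hydrocarbon receptor that kynurenine can activate, rose to 109 ± 22.5 CPM in DSS, against 47.3 ± 4.34 CPM in Ctrl (1.203 ± 0.15, edgeR adjusted p = 0.00331). Cyp1a1, a target of that receptor, had 22, 31 and 29 counts in DSS, against 0, 2 and 1 counts in Ctrl (adjusted p = 0.00216). Slc7a5, which carries tryptophan and kynurenine among other amino acids, fell by 3.05 ± 0.38, a call lost without mouse 1717 (0.0640). With the block, and without DSS 1717, 5 genes of this pathway were called higher.

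In the pathway of extracellular ATP and adenosine 10 of 22 tested genes (45.5%) were called higher and 3 (13.6%) lower (median 0.50). Panx1, a channel that releases ATP, rose by 1.15 ± 0.09 (34.1, 32.2 and 35.6 CPM in DSS, against 14.2, 15.1 and 16.8 CPM in Ctrl), and Adora1, an adenosine receptor, by 1.84 ± 0.21. The ATP receptors P2rx4 (0.48 ± 0.07) and P2ry2 (0.83 ± 0.14) rose as well. Named after their values were seen, Entpd1, which encodes CD39 and makes the AMP that CD73 uses, fell by 0.56 ± 0.13 (16.0 ± 2.60 CPM in DSS and 23.4 ± 2.34 CPM in Ctrl), and Enpp1, which also makes AMP, fell by 1.69 ± 0.33. Other enzymes of this list, also named after their values were seen, went both ways. Enpp3 was called lower (-1.41 ± 0.37, edgeR adjusted p = 0.0453), with differences of -0.16, -1.79 and -1.87 by mouse. Entpd5 (0.66 ± 0.11, edgeR adjusted p = 0.0104) and Alpl (1.79 ± 0.47, 0.0462) were called higher. The calls of Enpp3, Entpd5 and Alpl were not followed through the alternative fits. Alpl had 7.15 ± 4.56 CPM in DSS and 2.05 ± 0.291 CPM in Ctrl. The adenosine receptor Adora2b rose by 0.67 ± 0.17. Calls were lost for P2rx4 and P2ry2 without mouse 1717 or 1718, for Enpp1 without these or Ctrl 1717, and for Entpd1 without these, DSS 1717, DSS 1718, Ctrl 1716 or Ctrl 1717. Adora2b lost its call in 7 of the 9 fits that left out data, all but those without DSS 1716 and Ctrl 1717 (these losses at adjusted p = 0.0550 to 0.268). The count called higher was 6 without Ctrl 1717, 5 without Ctrl 1718, and 5, 2 and 5 with mouse 1716, 1717 or 1718 left out in turn, and the count called lower was 1 without DSS 1718 and 0 without Ctrl 1717, mouse 1717 or mouse 1718. With the block 12 were higher and 5 lower.

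**Figure D4:**
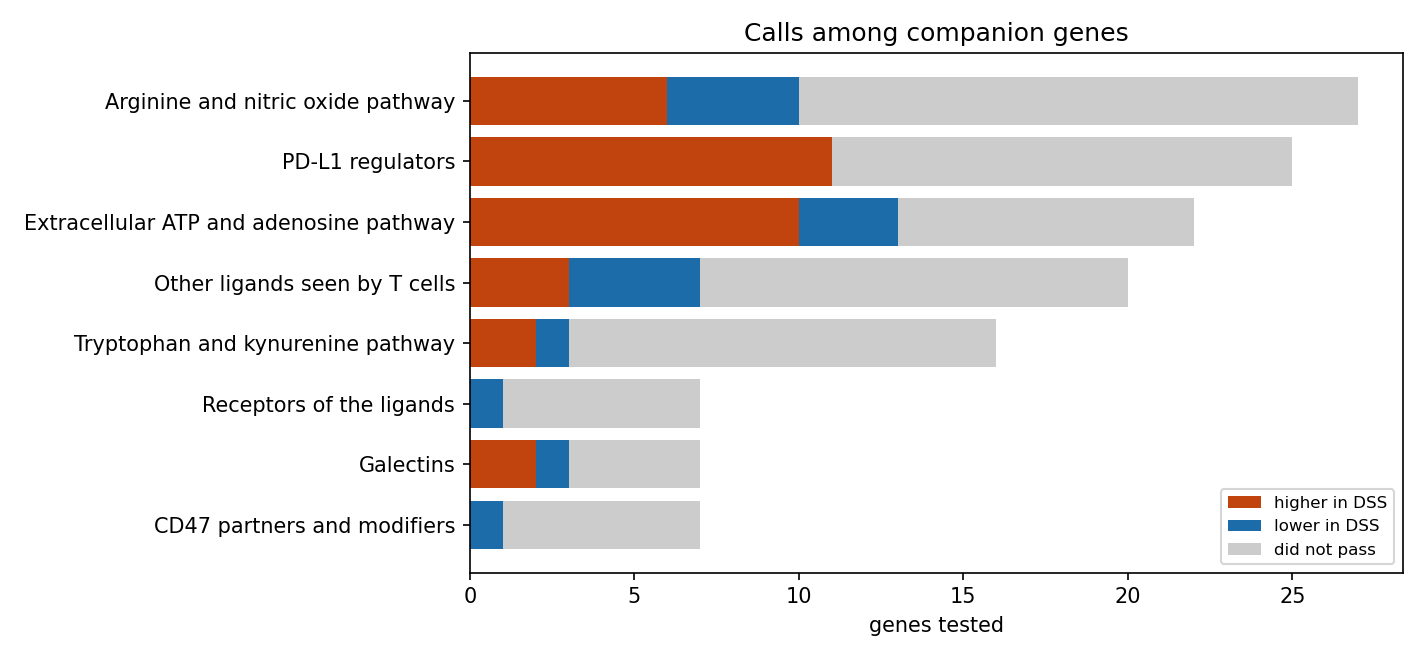
Number of tested genes in each list of companions that were called higher in DSS (red), called lower in DSS (blue) or did not pass (grey) by edgeR, members left out. The list of PD-L1 regulators has 11 higher and 0 lower, and that of extracellular ATP and adenosine 10 higher and 3 lower.

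The genes whose levels over the 6 libraries were most like those of Cd274 were sought among 12571 genes averaging 5 CPM or more, by the Euclidean distance between log2 CPM values centred on each gene's mean. The nearest were Cx3cl1, a chemokine (distance 0.37), Gm36043 (0.45), Gm34845 (0.47), Gdf15, a stress-induced cytokine (0.51), and Slamf7, a receptor of immune cells (0.54). Gm36043 is a long noncoding RNA on the minus strand of chromosome 19 at 29378749 to 29384951, inside Cd274 and antisense to it. It averaged 17.8 ± 4.43 CPM in DSS and 7.21 ± 1.24 CPM in Ctrl (SD, n = 3 each). The libraries were directional, but the sources used here do not say whether the counting used strand, so reads of the 2 genes may have been shared.

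For Nos2 the nearest gene of 12571 was Serpina3i, a serine protease inhibitor (distance 0.44), with 11.7, 3.41 and 13.0 CPM in DSS, against 5.02, 5.64 and 5.22 CPM in Ctrl. It too was lower in DSS in mouse 1717 alone, and as a member of a cluster of close copies its level is uncertain. The next were Tvp23a (0.78), Socs1, a feedback inhibitor of JAK kinases (0.87), Mndal (0.88) and Trim34a (0.89). For Ido1 the nearest of 12572 were Oas1b (0.38), AA467197 (0.44), Ifi211 (0.45), Wars, the tryptophanyl-tRNA synthetase (0.51), and Sp100 (0.58), and of these Oas1b, AA467197, Ifi211 and Wars had a negative difference in mouse 1717 and a positive one in the other 2 mice. These distances describe likeness over 6 libraries that fall into 2 groups. The genes near Nos2 and Ido1 were picked by their likeness in these same libraries. A sign shared in mouse 1717 is therefore in good part set by that choice and is no separate observation. For Ido1 that sign rests on 10 counts in DSS against 18 in Ctrl.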

How the data were processed

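Directional libraries were made from total RNA depleted of ribosomal RNA and sequenced on an Illumina NextSeq, as the labels' protocols state. What the authors deposited are estimated counts per RefSeq transcript, made with kallisto on GRCm38 (mm10) per the submitters' processing notes; the sources used here give neither its version nor its settings nor its use of strand. Of the values above 0, 84.5 to 84.8% were not whole (tolerance 1e-06). Because kallisto divides reads among like transcripts, levels of single forms and of close copies are less certain than those of genes.

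The expected counts were summed per symbol and rounded. The filter on low values was filterByExpr (count of 10 or more, total of 15 or more) and scaling was TMM. The quasi-likelihood test of edgeR had group as its only term, with Benjamini-Hochberg adjustment over all genes; the SE is the log2 fold change divided by the square root of F. Differences per mouse are of log2 CPM with a prior count of 2. Same-numbered libraries come from the same animal, and their deviations from the group means correlated across genes with r = 0.35, 0.21 and 0.46. Alternatives were the mouse as a block, DESeq2, limma-voom, RLE size factors, library totals, no filter, and leaving out each library or mouse. The fits were tested on simulated data. Positions are those of RefSeq on GRCm38.p6, to which all 120299 transcripts were matched, and lengths those of GENCODE M21. Tests were run with edgeR 4.0.16, DESeq2 1.42.0 and limma 3.58.1 under R 4.3.3, tables were joined with pandas 2.3.3 under Python 3.11.15, and figures were drawn with matplotlib 3.10.9.

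The members, the lists of companions and the rule for named genes (2 to 4 called genes with the smallest p per list, all where 5 or fewer were called, and the 5 genes nearest to Cd274, Ido1 and Nos2) were chosen with earlier results of these data known. Nothing in the sources used here says how many cultures were grown per mouse, so p-values measure the spread between these libraries. One gene that the rule names is not reported here.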

Additional observations from a re-analysis of the deposited data

How the results depend on the processing

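Of 144 refits of the 9 tested members under 16 alternatives, 115 kept direction and side of the threshold, 18 kept the direction and lost the call, 5 gained a call and 6 changed sign. All 6 were of Cd47, called in no fit: its log2 fold change was -0.00034 with DESeq2, -0.0036 with DESeq2 and the block, -0.00036 with RLE size factors, and -0.059 to 0.060 with a library or mouse left out (-0.059 without DSS 1718, -0.014 without Ctrl 1716, -0.055 without mouse 1718). The cause of these losses and gains was not tested. Cd274, Icosl, Lgals9 and Cd276 kept their calls in each of the 7 alternatives that used all 6 libraries. With the mouse as a block edgeR called 2447 genes higher and 2518 lower and 3 members lower, and DESeq2 with the block called 2 members lower. With any 1 library or any 1 mouse left out (9 fits), 378 to 1310 genes were called higher and 185 to 1108 lower, and 1 to 3 members were called higher and 0 to 1 lower. Those fits have fewer libraries and make no use of the pairing. The member count called higher was 1 without Ctrl 1717 or mouse 1718, and the count called lower was 0 without DSS 1718, Ctrl 1716, Ctrl 1717 or any 1 mouse. Of 38 called companion genes refitted under the alternatives, 10 kept their calls in every fit that gave a p. Depth limits Pdcd1lg2, with 9 counts in DSS and 6 in Ctrl over 3 libraries each. Ido1 had 55 counts in DSS and 42 in Ctrl.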

Other observations

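Tigit, a T cell receptor that binds the ligand encoded by Pvr, was listed at 167 ± 12.3 CPM in DSS and 166 ± 25.2 CPM in Ctrl (SD, n = 3 each), although the T cell gene Cd3e had at most 0.0571 CPM in DSS and 0.0548 CPM in Ctrl. All of these counts (100%) went to the predicted transcript XM_017316834.2, and the curated transcript NM_001146325.1 was at 0 in every library. The RefSeq interval of Tigit (chromosome 16, 43626137 to 43665125, minus strand) overlaps 16466 bases of the end of Zbtb20 on the plus strand in GENCODE, and Zbtb20 had 285 ± 34.6 CPM in DSS and 276 ± 40.7 CPM in Ctrl. The part of that overlap in the level of Tigit was not tested.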
